A study of Mus musculus with 3 samples.

Results

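The genes described here are *Selenop* and 9 enzymes that handle superoxide or peroxides, namely *Gpx1*, *Gpx3*, *Gpx4*, *Gpx7*, *Gpx8*, *Sod1*, *Sod2*, *Sod3* and *Cat*. They were listed by symbol, with earlier results of these data known. All 10 were found among the 30651 symbols present in both deposited tables. The cells were primary hepatic stellate cells (HSCs), liver pericytes that store vitamin A. They were purified on a Nycodenz density gradient from livers of female mice of the C57BL/6 strain, which were wild-type and more than 24 weeks of age. After 24 hours of starvation in DMEM with 0.2% FBS, the untreated group received no factor, the FGF18 group received recombinant human FGF18 at 100 ng/mL, and the TGFβ1 group received TGFβ1 at 1 ng/mL, for 24 hours. No group carried a transgene or a deletion. Between 80 and 90% of the isolated cells were positive for UV autofluorescence according to the labels, and an isolation typically pooled 2 mice, so other liver cells could be present.

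Superoxide, a by-product of respiration and the product of NADPH oxidases, is converted to hydrogen peroxide by superoxide dismutases in the cytosol (SOD1), the mitochondrial matrix (SOD2) and the extracellular space (SOD3). Hydrogen peroxide is then removed by catalase in peroxisomes, by glutathione peroxidases and by peroxiredoxins. Several glutathione peroxidases carry selenocysteine, an amino acid inserted at UGA codons that would otherwise end translation. Selenoprotein P, the product of *Selenop*, is a secreted protein that carries selenium in plasma and is made mainly by hepatocytes in the liver. Reactive oxygen species are known to take part in the activation of HSCs to myofibroblasts.

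The values are the authors' mean level of each group in TPM, the number of transcripts of a gene per 1000000 transcripts of all genes. The unit corrects for transcript length and depth, so levels can be compared between genes. The tables give no value per library. The paper gives only an approximate number of reads per sample, so the depth reached by each library is unknown. The authors' standard errors and p-values were not used, so no spread between replicates is given and no difference below was tested. The log2 ratio is that of 2 group means after adding 1 TPM to each, and a fold without that qualifier divides one mean by the other as they stand. As a yardstick, a gene was counted as higher or lower where the ratio of the means, with 1 TPM added, was 1.5-fold or more and the compared groups averaged 10 TPM or more. The share of all genes past the same line is given beside these counts.

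The selenocysteine codon separates the members of the glutathione peroxidase family, and the coding sequence around it is shown because the later counts of selenocysteine codons rest on it. The GENCODE M21 annotation of GRCm38 marks 1 selenocysteine codon each in *Gpx1*, *Gpx3* and *Gpx4*. *Gpx7* and *Gpx8* have no in-frame TGA before the stop codon. Their window is centred on the cysteine codon whose surroundings share the most bases with the other 3 genes. Each line gives 45 bases of the coding strand from 5′ to 3′, with the selenocysteine codon (TGA) or the matching cysteine codon in capitals.
Gpx1 (codon 47): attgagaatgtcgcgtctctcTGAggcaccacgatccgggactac
Gpx3 (codon 73): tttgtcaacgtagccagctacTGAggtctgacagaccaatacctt
Gpx4 (codon 73): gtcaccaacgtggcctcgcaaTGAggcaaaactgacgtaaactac
Gpx7 (codon 56): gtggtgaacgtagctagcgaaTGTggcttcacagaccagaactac
Gpx8 (codon 79): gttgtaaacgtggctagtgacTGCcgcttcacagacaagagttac
The *Gpx7* window shared 30 of its 45 bases with that of *Gpx3*, and the *Gpx8* window shared 26 with *Gpx3*. The selenocysteine codon lies on chromosome 9 at 108339451 to 108339453 in *Gpx1*, on chromosome 11 at 54907256 to 54907258 in *Gpx3* and on chromosome 10 at 80054737 to 80054739 in *Gpx4*, all on the plus strand.

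*Selenop* differs from every other mouse selenoprotein gene in the list of 24 in the number of these codons. Its coding sequence holds 10 in-frame TGA codons in 380 codons, at codons 59, 259, 277, 318, 330, 352, 366, 368, 375 and 377. *Dio2* holds 2, and each of the other 22 genes holds 1. The end of the *Selenop* coding sequence, from codon 351 to codon 378, is printed to show how closely the last 5 selenocysteine codons (TGA, in capitals) follow each other.
Selenop: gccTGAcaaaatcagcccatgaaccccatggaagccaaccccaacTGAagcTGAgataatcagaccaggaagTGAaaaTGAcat

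In untreated HSCs all 10 genes were well expressed. *Gpx4*, the peroxidase that reduces lipid hydroperoxides in membranes, was the highest at 841 TPM and ranked 142nd among all genes. *Selenop* followed at 667 TPM, ranked 194th. *Sod1* stood at 380 TPM, *Cat* at 266 TPM, *Gpx1* at 178 TPM and *Gpx8* at 175 TPM. *Sod3* at 105 TPM, *Gpx3* at 94.5 TPM and *Sod2* at 89.4 TPM lay close together, and *Gpx7* was the lowest at 35.2 TPM. Whether neighbours in this order differ, such as *Gpx1* and *Gpx8*, cannot be judged without the spread between libraries.

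**Figure D1:**
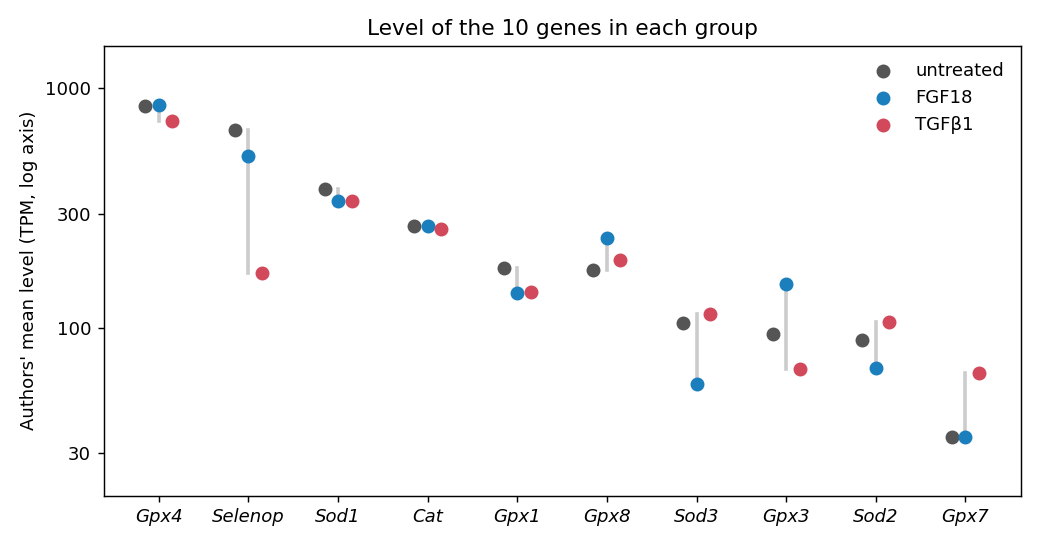
Authors' mean level in TPM (log axis) of the 10 genes in untreated, FGF18-treated and TGFβ1-treated HSCs, ordered by the untreated level. Each point is 1 group mean and the grey line joins the lowest and the highest of the 3. *Selenop* spans the widest range, from 667 TPM in untreated cells to 169 TPM with TGFβ1, and *Cat* the narrowest, from 259 to 266 TPM.

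*Selenop* was the member that differed most between groups. Its mean level was 667 TPM in untreated cells, 522 TPM with FGF18 and 169 TPM with TGFβ1. The TGFβ1 group was thus 3.94-fold lower than the untreated group, with a log2 ratio of -1.97. Of 9652 genes that averaged 10 TPM or more in that comparison, 35 had a lower log2 ratio. With FGF18 the level was 1.28-fold lower, a log2 ratio of -0.35, and 1752 of 9358 genes had a lower one. The FGF18 group stood 3.08-fold above the TGFβ1 group. The rank of *Selenop* among all genes went from 194 in untreated cells to 293 with FGF18 and 1000 with TGFβ1.

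*Selenop* lies on chromosome 15 from 3268547 to 3280508 on the plus strand of GRCm38, where it overlaps *Ccdc152* on the opposite strand. *Ccdc152* stood at 11.5 TPM in untreated cells, 5.58 TPM with FGF18 and 4.19 TPM with TGFβ1. By the paper, amplified double-stranded cDNA was fragmented and then ligated to adapters, a procedure that keeps no record of the strand. Reads in the shared stretch could therefore belong to either gene. All 3 levels of *Ccdc152* are far below those of *Selenop*.

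Cells other than HSCs can also express *Selenop*, and their markers were read in the same columns. In bulk samples, fewer cells of a type and less RNA per cell cannot be told apart. Of 10 hepatocyte markers, *Ass1*, an enzyme of the urea cycle, was the highest at 49.1 TPM in untreated cells, 43.8 TPM with FGF18 and 53.1 TPM with TGFβ1. *Alb*, which encodes albumin, lay between 6.03 and 6.57 TPM in the 3 groups. The summed level of the hepatocyte list was 69.9, 63.6 and 75.8 TPM in the untreated, FGF18 and TGFβ1 groups, most of it from *Ass1*. Of 10 Kupffer cell and macrophage markers, *Cd68* was the highest at 52.1, 85.0 and 43.0 TPM in the untreated, FGF18 and TGFβ1 groups, and *Clec4f*, which defines Kupffer cells, was at 0.186, 0.531 and 0.213 TPM. The summed level of this list was 58.0, 92.9 and 53.5 TPM, most of it from *Cd68*. With TGFβ1, *Csf1r*, *C1qa*, *C1qb*, *C1qc*, *Cd5l* and *Adgre1* were above their untreated levels, whereas *Marco* and *Vsig4* were below. The highest of these, *Csf1r*, stood at 2.27 TPM untreated and 3.94 TPM with TGFβ1. *Krt19*, a keratin of bile duct cells, was at 0.728 TPM in untreated cells, 1.28 TPM with FGF18 and 2.76 TPM with TGFβ1. *Spp1*, the highest of the 6 biliary markers and also expressed by HSCs, was at 52.1, 388 and 285 TPM. The part of RNA from hepatocytes, macrophages or bile duct cells in the *Selenop* levels was not tested.

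The endothelial list was lowest in sum with TGFβ1, as *Selenop* was, but not every marker followed. The summed level of 10 liver endothelial markers was 569 TPM in untreated cells, 443 TPM with FGF18 and 222 TPM with TGFβ1. Of the 5 markers that averaged 10 TPM or more in the TGFβ1 comparison, 4 were lower with TGFβ1, where 5.61% of all 9652 genes were. They were *Egfl7*, *Fcgr2b*, *Kdr* and *Stab1*. *Egfl7*, the highest of the list in untreated cells, went from 205 TPM there to 68.3 TPM with TGFβ1. Among the markers under that minimum, *Clec4g*, *Oit3* and *Cdh5* were also lower. They stood at 16.5, 12.9 and 9.11 TPM untreated and at 1.35, 1.77 and 2.52 TPM with TGFβ1. *Pecam1*, an adhesion molecule of all endothelial cells, stood at 103 TPM untreated and at 96.8 TPM with TGFβ1. *Stab2*, a scavenger receptor of sinusoidal endothelium, went the other way, at 5.48 TPM untreated, 7.29 TPM with FGF18 and 9.08 TPM with TGFβ1. None of the 10 was at 0 in any group, and *Lyve1* was the lowest at 0.863, 0.321 and 0.929 TPM. The part of endothelial RNA in the *Selenop* levels was not tested.

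The HSC markers were present and moved as well. *Reln*, the highest of 10 HSC markers in untreated cells, stood at 208 TPM there, 234 TPM with FGF18 and 173 TPM with TGFβ1. *Lrat*, which esterifies retinol for storage, was at 151, 61.6 and 43.9 TPM. The summed level of the list was 919 TPM in untreated cells, 650 TPM with FGF18 and 743 TPM with TGFβ1. With TGFβ1, 4 of the 9 markers at 10 TPM or more were lower, namely *Colec11*, *Des*, *Lrat* and *Rgs5*, beside the same 5.61% of all genes. *Pdgfrb*, a growth factor receptor of pericytes, was higher, at 66.3 TPM untreated and at 139 TPM with TGFβ1. Their part in the levels of the 10 genes was not tested.

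**Figure D2:**
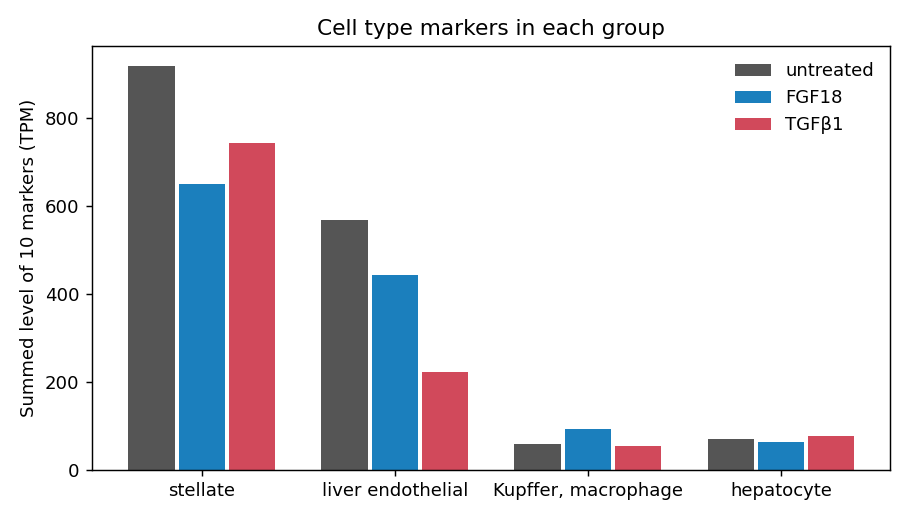
Summed level in TPM of 10 markers each of HSCs, liver endothelial cells, Kupffer cells with macrophages, and hepatocytes in the untreated, FGF18 and TGFβ1 groups. Each bar is a sum of group means. The endothelial sum goes from 569 TPM in untreated cells to 222 TPM with TGFβ1, whereas the hepatocyte sum stays between 63.6 and 75.8 TPM.

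Among the glutathione peroxidases, the members differed in direction. *Gpx3*, the secreted glutathione peroxidase of plasma, had a mean level of 94.5 TPM in untreated cells, 152 TPM with FGF18 and 67.7 TPM with TGFβ1. It was 1.61-fold higher with FGF18 than in untreated cells, with a log2 ratio of 0.68, and 284 of 9358 genes had a higher one. With TGFβ1 it was 1.40-fold lower at -0.48, inside the 1.5-fold line. The FGF18 group was 2.25-fold above the TGFβ1 group.

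*Gpx7*, an oxidant sensor of the endoplasmic reticulum with little peroxidase activity toward glutathione, stood at 35.2 TPM in untreated cells, 35.3 TPM with FGF18 and 64.7 TPM with TGFβ1. It was 1.84-fold higher with TGFβ1, a log2 ratio of 0.86 that 265 of 9652 genes exceeded. With FGF18 its log2 ratio was 0.0033. *Gpx8*, a membrane-bound relative that also lies in the endoplasmic reticulum, stood at 175, 237 and 193 TPM in the untreated, FGF18 and TGFβ1 groups. Its log2 ratio was 0.44 with FGF18 and 0.14 with TGFβ1, both inside the 1.5-fold line. The *Gpx7* means of the untreated and FGF18 groups were thus nearly equal, whereas the TGFβ1 group stood apart.

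*Gpx4* had similar means in all groups, at 841 TPM untreated, 853 TPM with FGF18 and 731 TPM with TGFβ1, with log2 ratios of 0.020 and -0.20. *Gpx1*, the abundant cytosolic enzyme, stood at 178 TPM untreated, 140 TPM with FGF18 and 141 TPM with TGFβ1. Both stimulated groups were lower than the untreated group, 1.28-fold with FGF18 and 1.26-fold with TGFβ1, and neither passed the 1.5-fold line. Because both ratios use the same untreated mean, an error in that mean would move both in one direction.

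Summed over the 8 genes of the family, glutathione peroxidase mRNA came to 1332 TPM in untreated cells, 1422 TPM with FGF18 and 1205 TPM with TGFβ1. *Gpx4* made up 63.2% of it in untreated cells, 60.0% with FGF18 and 60.7% with TGFβ1. The share of *Gpx3* was 7.09%, 10.7% and 5.62%, and that of *Gpx7* 2.64%, 2.48% and 5.37%. *Gpx2*, *Gpx5* and *Gpx6*, the other 3 genes of the family, were each under 4 TPM in every group.

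Of the superoxide dismutase genes, *Sod3* passed the 1.5-fold line with FGF18 and none did with TGFβ1. *Sod3*, the secreted form that binds to matrix proteoglycans, had a mean level of 105 TPM in untreated cells, 58.5 TPM with FGF18 and 115 TPM with TGFβ1. It was 1.79-fold lower with FGF18, with a log2 ratio of -0.83, and 242 of 9358 genes had a lower one. With TGFβ1 the log2 ratio was 0.13. *Gpx3* and *Sod3*, whose products both act outside the cell, thus lay past the 1.5-fold line in opposite directions with FGF18.

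*Sod2*, the manganese enzyme of mitochondria, stood at 89.4 TPM untreated, 68.3 TPM with FGF18 and 106 TPM with TGFβ1. Its log2 ratio was -0.38 with FGF18 and 0.24 with TGFβ1. *Sod1*, the copper and zinc enzyme of the cytosol, stood at 380 TPM untreated and 337 TPM with each factor, and its log2 ratio was -0.17 in both comparisons. *Sod1* overlaps *Scaf4* on the opposite strand, and *Scaf4* was at 12.0, 18.8 and 17.0 TPM. The 3 genes together came to 575 TPM in untreated cells, 464 TPM with FGF18 and 558 TPM with TGFβ1, and *Sod1* made up 66.2%, 72.7% and 60.5% of that.

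*Cat*, which encodes the catalase of peroxisomes, varied least. Its mean level was 266 TPM untreated, 266 TPM with FGF18 and 259 TPM with TGFβ1, with log2 ratios of 0.0022 and -0.040. It was the member with the smallest log2 ratio in size in both comparisons.

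**Figure D3:**
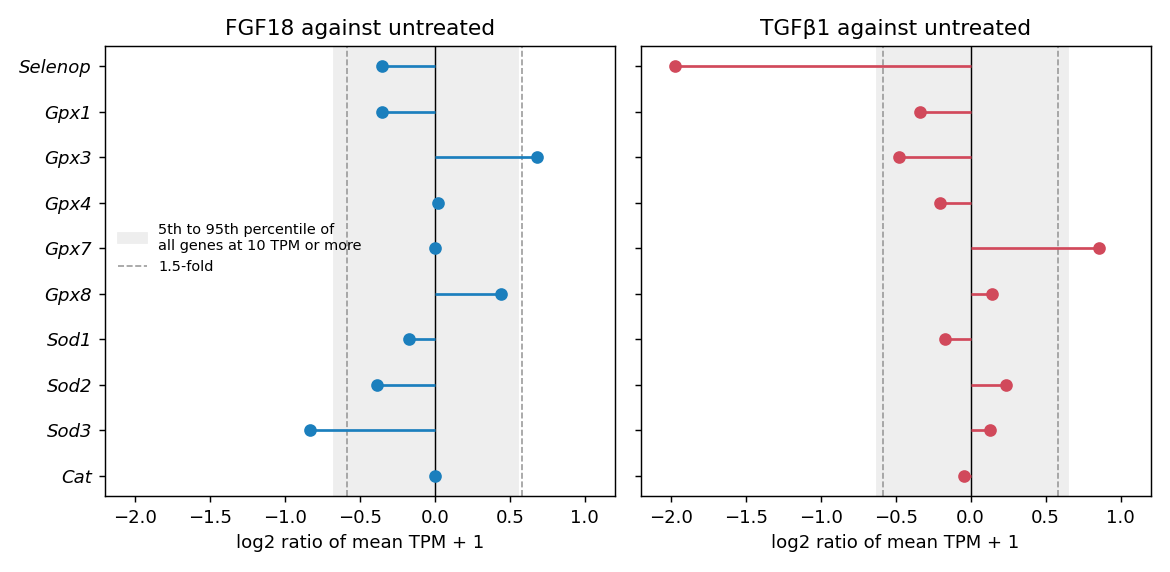
Log2 ratio of the group means (1 TPM added) for each of the 10 genes, FGF18 against untreated on the left and TGFβ1 against untreated on the right. The grey band spans the 5th to the 95th percentile of all genes averaging 10 TPM or more and the dashed lines mark 1.5-fold. *Gpx3* (0.68) and *Sod3* (-0.83) lie outside the band with FGF18, *Selenop* (-1.97) and *Gpx7* (0.86) with TGFβ1.

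Counted over the 10 genes, 1 was higher with FGF18 (*Gpx3*) and 1 was lower (*Sod3*). Over all 9358 genes at 10 TPM or more, 4.36% were higher and 7.52% lower, and 11.9% passed the line in either direction. With TGFβ1, 1 was higher (*Gpx7*) and 1 lower (*Selenop*), where 6.19% of 9652 genes were higher and 5.61% lower, or 11.8% in either direction. With so few members, 2 of 10 is near the background in both comparisons and is no result about the set. The median log2 ratio of the 10 genes was -0.09 with FGF18 and -0.11 with TGFβ1, beside -0.03 and 0.01 over all genes. No member passed the line with both factors.

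Set directly side by side, 5 of the 10 genes were 1.5-fold or more apart between the FGF18 and the TGFβ1 means, where 10.4% of 9337 genes were. The levels come from separate tables, which give the same untreated level for all 30595 symbols that occur once in each. *Selenop* and *Gpx3* were higher with FGF18, at log2 ratios of 1.62 and 1.16, and 4.04% of all genes were higher. *Sod3* (-0.96), *Gpx7* (-0.86) and *Sod2* (-0.62) were lower with FGF18 than with TGFβ1, and 6.33% of all genes were lower. *Sod2* was 1.55-fold lower and lay just past the line. For 4 of the 5 genes 1 of the factors had already moved the mean past the line against untreated cells, so this count adds little that is separate from the values above.

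The other selenoprotein genes that averaged 10 TPM or more lay inside the 1.5-fold line. *Selenoh* averaged under 10 TPM in the FGF18 comparison and was not counted there. It went from 11.7 TPM untreated to 7.20 TPM with FGF18, a log2 ratio of -0.63. Of 24 mouse selenoprotein genes, 18 averaged 10 TPM or more in the FGF18 comparison, and 1 of these (*Gpx3*) was higher and 0 were lower. In the TGFβ1 comparison 19 reached 10 TPM, and 0 were higher and 1 (*Selenop*) was lower. Of all genes, 4.36% were higher and 7.52% lower with FGF18, and 6.19% and 5.61% with TGFβ1. The median log2 ratio of the list was 0.05 with either factor. *Selenof* and *Selenok*, which lie in the endoplasmic reticulum, followed *Gpx4* and *Selenop* in abundance at 639 and 586 TPM in untreated cells, and were at 607 and 541 TPM with TGFβ1. *Txnrd1*, the cytosolic thioredoxin reductase, stood at 396 TPM untreated, 512 TPM with FGF18 and 504 TPM with TGFβ1. *Dio3*, which inactivates thyroid hormone, was listed at 0 with FGF18 and was under 0.2 TPM in the other groups.

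Weighted by the selenocysteine codons each mRNA carries, *Selenop* stood out further. In untreated cells the 24 genes together carried 10031 selenocysteine codons per 1000000 transcripts, and *Selenop* accounted for 6673 of them, or 66.5%. With FGF18 the total was 8798, with 59.3% from *Selenop*. With TGFβ1 the total was 5000, with 33.9% from *Selenop*, so the total was 2.01-fold lower than in untreated cells. Without *Selenop* the totals were 3358, 3582 and 3305. These sums count codons in mRNA at the authors' mean levels, assume the annotated principal coding sequence of each gene, and say nothing of how often the codons are translated.

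**Figure D4:**
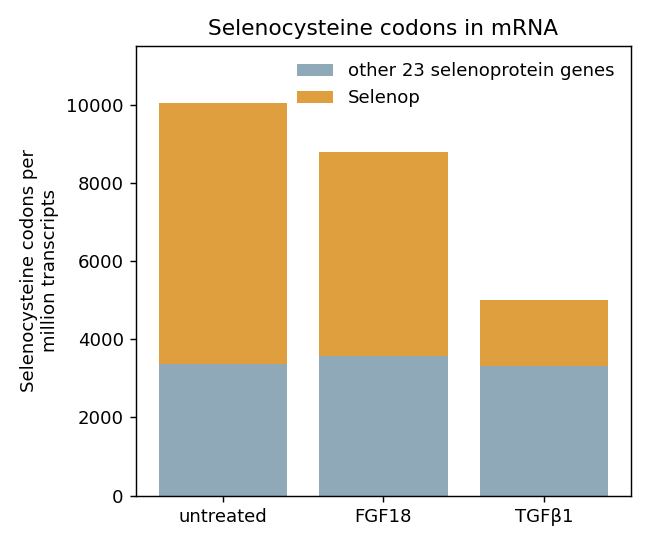
Selenocysteine codons per 1000000 transcripts in untreated, FGF18-treated and TGFβ1-treated HSCs, computed as mean TPM times the number of annotated codons and summed over 24 selenoprotein genes. The orange part is *Selenop* (6673, 5216 and 1695) and the blue-grey part the other 23 genes (3358, 3582 and 3305).

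Of 10 genes that insert selenocysteine or handle selenium, 7 reached 10 TPM in each comparison. Over all genes, 11.9% passed the line with FGF18 and 11.8% with TGFβ1. Counts over so few genes are near those shares and are no result about the list. With FGF18 0 passed the line, and with TGFβ1 1 was lower. That gene was *Lrp2*, which encodes megalin, a receptor that takes up selenoprotein P in kidney, at 13.7 TPM untreated, 5.26 TPM with FGF18 and 7.53 TPM with TGFβ1. Its log2 ratio was -1.23 with FGF18 and -0.78 with TGFβ1, and it was not counted with FGF18 because its mean over those groups was under 10 TPM. *Lrp8*, which encodes the receptor for selenoprotein P in brain and testis, did not reach the minimum and stood at 4.24, 9.25 and 8.48 TPM. The most abundant member, *Trnau1ap*, which binds the selenocysteine tRNA, stood at 62.4, 69.9 and 78.5 TPM. *Eefsec*, the elongation factor that delivers that tRNA, was at 29.7, 33.5 and 20.3 TPM.

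The peroxiredoxins, which share the removal of hydrogen peroxide with catalase and the glutathione peroxidases, were in sum far more abundant than either. Their 6 genes summed to 8551 TPM in untreated cells, 12336 TPM with FGF18 and 8382 TPM with TGFβ1. *Prdx1* alone stood at 5581, 7334 and 4373 TPM. *Prdx2*, *Prdx3* and *Prdx4*, at 168, 160 and 138 TPM in untreated cells, were each below *Cat* at 266 TPM. *Prdx5* at 395 TPM lay between *Cat* and *Gpx4*. *Prdx6*, which reduces phospholipid hydroperoxides as *Gpx4* does, stood at 2109, 3943 and 3019 TPM. With FGF18 its log2 ratio was 0.90, and it was the 1 peroxiredoxin of 6 past the line. With TGFβ1 0 of 6 passed it. Of all genes, 11.9% passed it with FGF18 and 11.8% with TGFβ1. Mouse *Prdx6* has a retrocopy, *Prdx6b*, and how shared reads were assigned is not stated, so its level carries that uncertainty.

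Genes that supply thioredoxin and glutathione, the electron donors of these enzymes, held the largest log2 ratios among the pathway genes that are not members. Of 12, all at 10 TPM or more, 3 were higher and 1 lower with FGF18, and 1 was higher and 1 lower with TGFβ1. Of all genes, 4.36% were higher and 7.52% lower with FGF18, and 6.19% and 5.61% with TGFβ1. *Gclc* and *Gclm*, the subunits of the enzyme that limits glutathione synthesis, had log2 ratios of 1.62 and 1.58 with FGF18. *Gclm* stood at 549 TPM untreated, 1642 TPM with FGF18 and 1173 TPM with TGFβ1, a log2 ratio of 1.09 for TGFβ1. *Gsr*, which regenerates glutathione, was at 100.2, 180 and 138 TPM, a log2 ratio of 0.84 with FGF18. *Txnip*, which binds and inhibits thioredoxin, was lower with both factors, at 53.7, 28.3 and 24.4 TPM. *Txn1*, thioredoxin itself and the most abundant of the list in untreated cells, stood at 616, 594 and 694 TPM. The median log2 ratio of the list was 0.32 with FGF18 and 0.14 with TGFβ1.

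Genes on the producing side that averaged 10 TPM or more were inside the line. Of 9 genes for superoxide and peroxide sources, 5 reached 10 TPM and 0 passed with either factor. Of all genes, 11.9% passed with FGF18 and 11.8% with TGFβ1. *Cyba*, the membrane subunit shared by NADPH oxidases and the highest of the list in untreated cells, stood at 213, 197 and 181 TPM. With FGF18, *Xdh* was higher at 215 TPM. *Nox4*, the NADPH oxidase of fibroblasts and HSCs, stood at 108, 75.9 and 98.0 TPM, a log2 ratio of -0.50 with FGF18. Of 4 genes for copper supply and SOD maturation, 3 reached 10 TPM and 0 passed, beside the same shares of all genes. In lists this short, counts of 0 are near those shares and are no result about the lists. *Atox1*, a copper chaperone and the highest of them, stood at 371, 385 and 414 TPM, and *Ccs*, which loads copper into SOD1, at 36.9, 27.5 and 32.0 TPM.

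**Figure D5:**
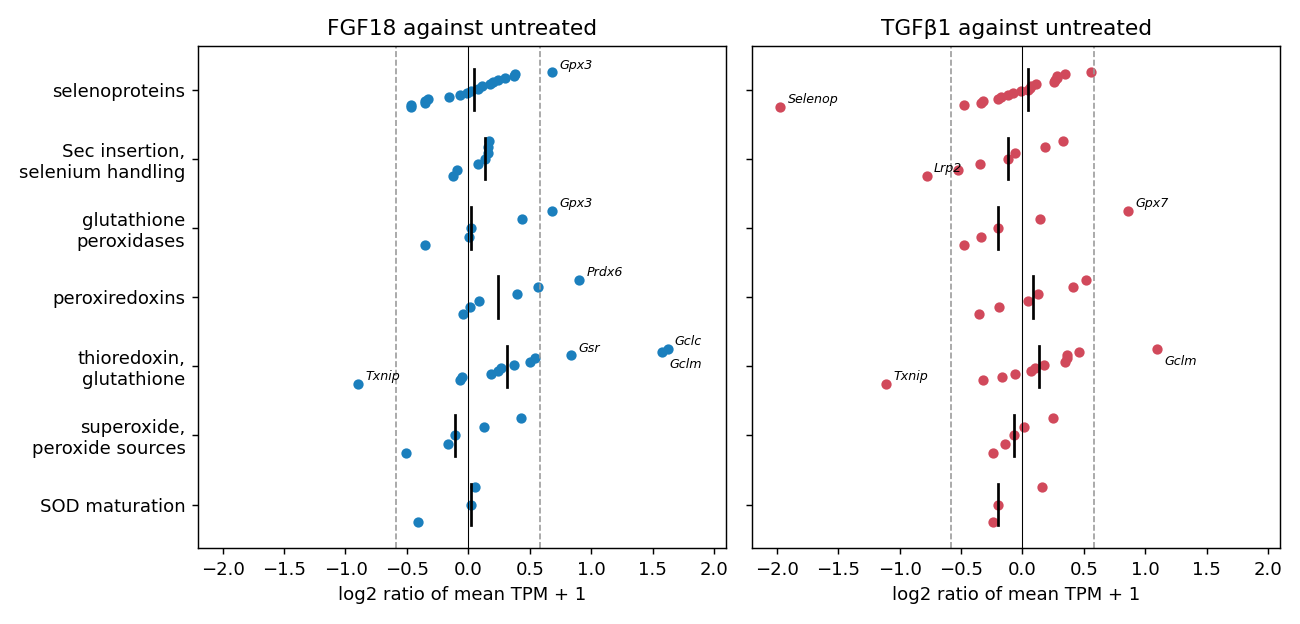
Log2 ratio of the group means (1 TPM added) for each gene at 10 TPM or more in 7 lists, FGF18 against untreated on the left and TGFβ1 against untreated on the right. Points are genes, black ticks are list medians, dashed lines mark 1.5-fold, and genes past it are named. *Gclc* (1.62), *Gclm* (1.58) and *Prdx6* (0.90) lie furthest to the right with FGF18, and *Selenop* (-1.97) furthest to the left with TGFβ1.

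The promoters of the members were searched for short motifs, as a description of sequence only. RefSeq start sites (GRCm38.p6) were matched for 9 of the 10 genes, with none for *Sod3*. The 250 bases before each start were read on both strands. The antioxidant response element, TGACNNNGC, was found in the *Sod1* promoter and in none of the other 8 genes, and 10.2% of 32851 promoters of that length hold it. The letters CAGACA and GTCTAGAC, which SMAD proteins can bind, were found in none of the 9, beside 17.1% and 0.167% of all promoters. TGANTCA, which AP-1 binds, was found in none of the 9 either, beside 6.75% of all promoters.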

How the data were processed

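HSC RNA was amplified with the SMART-Seq HT PLUS kit and sequenced as paired-end reads. The authors mapped reads to mouse GRCm38 and normalized them on the RaNA-seq platform. For the aligner, the counting program and the annotation release, no name is given in the sources used here. TPM values were deposited as the mean of each group, over triplicate samples by the paper. The labels list 1 record per group and do not say whether triplicates came from separate isolations. The unit was read from the values. The group columns sum to between 999985 and 999995, and among genes listed at 0 in untreated cells the level falls with transcript length (Spearman's rho of -0.67 over 1813 genes and -0.68 over 2044). The level columns are named only A and B. Column A is the same in both tables and was taken as untreated, the group both share, and 0 columns were left without a group. The authors' own log2 fold changes, standard errors, statistics, p-values and adjusted p-values fill the other columns and were not used.

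Levels, ratios and counts were computed with Python 3.11.15, numpy 2.4.6 and pandas 2.3.3, and figures were drawn with matplotlib 3.10.9. The step that counts genes past a fold was tested on simulated data. The pseudocount was 1 TPM, the minimum mean 10 TPM and the fold 1.5. The 10 members, the 7 pathway lists and the 5 marker lists were chosen with earlier results of these data known. The text names all members, each pathway gene past the line, the most abundant gene of each list, and others chosen after their values were seen. Alternatives were pseudocounts of 0 and 5, no minimum or one of 100 TPM, a 2-fold line, a looser line at a difference of 25%, centred ratios and the untreated column of the other table. Gene positions, coding sequences and selenocysteine codons come from GENCODE M21, and promoters from RefSeq.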

Additional observations from a re-analysis of the deposited data

How the results depend on the processing

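Of the 10 genes, 2 passed 1.5-fold with FGF18, 2 with TGFβ1 and 5 between the 2 factors. These counts were the same with pseudocounts of 0 and 5. Taking the untreated column of the other table or no minimum level could not change them, since the untreated levels are identical and all 10 genes average over 10 TPM. Centring left 2 and 2, and left 4 between factors, since *Sod2* moved to -0.57. With a minimum of 100 TPM the counts were 1, 1 and 2, as fewer genes were eligible, and 8.57%, 8.92% and 8.10% of all genes passed. At 2-fold they were 0, 1 and 2, where 2.61%, 3.82% and 3.17% of all genes passed. *Selenop* passed there with TGFβ1, and *Selenop* and *Gpx3* between factors. At a looser line, a difference of 25%, they were 6, 4 and 5, where 33.7%, 30.1% and 31.3% of all genes passed. The direction of a gene past the line could not reverse, since these settings keep the sign of a ratio or shift it too little. No paired analysis was possible because the tables hold only group means, and leaving out a library could not be run for that reason.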
